A study of Mus musculus with 4 samples.

Results

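Dividing macrophages were the cells of the salivary gland that carried both the complement C1q transcripts of tissue macrophages and transcripts of the mitotic genes Mki67 and Top2a. UMIs (unique molecular identifiers) count captured transcripts. A barcode needed 500 or more UMIs, 300 or more genes and no more than 10% of its UMIs from mitochondrial genes. A cell passing these was a dividing macrophage if it had at least 20 UMIs of C1qa, C1qb and C1qc together, at least 4 UMIs of Mki67 and Top2a together, and 0 UMIs of the T cell genes Cd3e, Cd3d and Cd3g. The rule found 722 dividing macrophages among 6290 C1q macrophages (the same rule without the Mki67 and Top2a condition), out of 37644 kept cells and 39395 barcodes in all. Another 4392 C1q macrophages had 0 UMIs of Mki67 and Top2a and served as the non-dividing comparison, and 1176 had 1 to 3 such UMIs and stood between. A further 350 cells met the C1q and Mki67 plus Top2a conditions but carried a Cd3 UMI and were left out by the rule.

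The cells were CD45+ leukocytes of the salivary glands of 20-day-old C56BL/6 mice, enriched with CD45 magnetic beads, flow sorted and sequenced with the 10x Genomics 3′ single-cell assay. The groups were Csf2-/- mice (1 library of females and 1 library of males) and Csf2+/- mice (1 library of females and 1 library of males), each library holding cells pooled from 2 mice. Csf2 encodes the cytokine GM-CSF, and both groups carried the mutant allele, on both copies in Csf2-/- and on 1 copy in Csf2+/- mice. Pairs of values are for the female and the male library of a genotype, in that order. The library is the replicate here, with n = 2 per genotype, and p-values measure only the spread between these 4 libraries.

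Tissue macrophages can renew themselves by local division, and CSF1R, the receptor of the cytokines CSF1 and IL-34, is the main receptor sustaining most of them. A dividing cell switches on E2F target genes for DNA replication in S phase, then a later set for chromosome condensation, spindle assembly and cytokinesis in G2 and M phase. The later set is held off in resting cells by the DREAM complex and switched on by B-MYB and FOXM1, acting through promoter elements called CHR and CCAAT boxes. GM-CSF signals through Csf2ra and Csf2rb to JAK2 and STAT5 and is best known in macrophages for its role in the lung.

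The 2 genes that defined division here, Mki67 (the Ki-67 antigen, a coat of mitotic chromosomes) and Top2a (DNA topoisomerase II alpha), are given with Mcm5, a subunit of the replicative helicase, because their promoters show the elements of the late and the early cell-cycle sets side by side. Each line holds the 250 bases before the transcription start, 5′ to 3′ on the gene's strand, from RefSeq on GRCm38.p6; capitals mark the CHR word TTTGAA, the box word CCAAT and, as E2F words, TTTCCCGC, TTTCGCGC, TTTGCCGC and TTTGGCGC, each on either strand.
Mki67: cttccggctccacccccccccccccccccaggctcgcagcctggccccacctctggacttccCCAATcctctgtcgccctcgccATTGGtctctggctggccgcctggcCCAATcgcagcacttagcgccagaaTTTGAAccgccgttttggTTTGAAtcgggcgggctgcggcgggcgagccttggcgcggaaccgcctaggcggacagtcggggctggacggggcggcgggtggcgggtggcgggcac
Top2a: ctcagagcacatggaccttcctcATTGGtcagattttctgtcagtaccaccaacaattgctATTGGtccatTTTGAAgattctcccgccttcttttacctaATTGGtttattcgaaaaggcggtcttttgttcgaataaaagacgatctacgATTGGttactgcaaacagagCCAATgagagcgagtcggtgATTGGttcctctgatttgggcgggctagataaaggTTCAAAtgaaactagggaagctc
Mcm5: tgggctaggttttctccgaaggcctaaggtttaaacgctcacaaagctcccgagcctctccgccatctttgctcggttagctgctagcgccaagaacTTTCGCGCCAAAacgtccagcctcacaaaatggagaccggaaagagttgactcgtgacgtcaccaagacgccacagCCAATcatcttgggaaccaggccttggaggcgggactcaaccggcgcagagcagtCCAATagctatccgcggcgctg
The Mki67 window lies at chr7:135716380-135716629 on the minus strand and holds 2 CHR and 3 CCAAT words. The Top2a window lies at chr11:99024190-99024439 on the minus strand and holds 2 CHR and 6 CCAAT words. The Mcm5 window lies at chr8:75109259-75109508 on the plus strand and holds 2 CCAAT words and 2 overlapping E2F words. Over the window from 250 bases before to 50 after the start, TTTGAA stood in 65.4% of 52 promoters of the G2/M list (47 of its 54 genes matched), against 17.9% of all 32851 promoters, and CCAAT in 75.0% against 37.4%. The E2F words stood in 35.3% of 34 promoters of the S list (31 of 43 genes matched), against 2.26% of all promoters. CCAAT stood in 67.6% of these S list promoters, so it was not particular to the G2/M list. Among 21 promoters of spindle and motor genes (19 of 22 genes matched), 81.0% held TTTGAA. The promoters printed are chosen cases. In the 250 bases before the start, Birc5 and Nusap1 held 0 CHR and 0 CCAAT words. Plk1, Kif4 and Hmmr held 0 CHR words, Cdc20 held 1, and Prc1 held 0 or 1 by its start. The replication genes Rrm2, Tyms and Pclaf held 0 E2F words there. A matching word is a description of the sequence, not a binding site.

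The 4 libraries held 111981802 to 122366588 UMIs each, and the sums over dividing macrophages held 2613753 to 6264030 UMIs per library. Csf2 itself was at 0.929 and 1.10 CPM (UMIs scaled to a fixed library total) over the kept cells of the female and male Csf2-/- libraries, against 16.7 and 18.1 CPM in the female and male Csf2+/- libraries. The libraries shared 173 barcodes, 5 barcodes of dividing macrophages also appeared in another library, and 0 barcodes were dividing macrophages in more than 1 library. Dividing macrophages held more UMIs than non-dividing ones, with medians of 17013 and 18197.5 (Csf2-/- female and male) and 19806 and 17226 (Csf2+/- female and male), against 10163 and 10927 (Csf2-/-) and 11125 and 10902 (Csf2+/-) in non-dividing cells. A threshold in raw UMIs can take in deeper cells more readily, and what part this has in the difference in depth was not tested.

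The label was checked against markers that the rule did not use. Birc5 (survivin, a subunit of the chromosomal passenger complex) stood at 305 and 292 CPM in the dividing macrophages of the female and male Csf2-/- libraries and at 282 and 295 CPM in those of the female and male Csf2+/- libraries, against 5.09 and 3.83 CPM (Csf2-/-) and 3.67 and 3.97 CPM (Csf2+/-) in non-dividing macrophages. Pclaf (a PCNA-binding replication factor) stood at 272 and 309 CPM (Csf2-/-) and 303 and 277 CPM (Csf2+/-) against 3.90 and 4.51 CPM (Csf2-/-) and 3.50 and 4.61 CPM (Csf2+/-). Both genes were thus far above the non-dividing level in every library, and the libraries differed little among themselves. Csf1r, which the rule did not use, had a UMI in 100% and 99.3% of the dividing macrophages of Csf2-/- libraries and 99.2% and 100% of those of Csf2+/- libraries. Among cells with at least 3 UMIs of the natural killer genes Ncr1 and Klrb1c and at most 2 C1q UMIs (NK/ILC1-like cells), which should not make Csf1r, the share was 5.47% to 7.09% per library. Median depths were 17226 to 19806 UMIs in dividing macrophages and 9262 to 11127 UMIs in NK/ILC1-like cells. With each cell thinned to 8000 UMIs, the Csf1r shares were 96.8% to 98.6% and 3.75% to 6.13%.

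The share of cells with a Birc5 UMI climbed with the number of Mki67 and Top2a UMIs, the quantity the rule cut. It was 3.14% of the 4392 cells with 0 such UMIs, 24.6% of the 395 cells with 2 to 3 just outside the threshold, 48.7% of the 154 cells with 4 to 5 just inside it, and 99.3% of the 301 cells with 20 or more. Pclaf gave 3.37% at 0 UMIs, 20.3% at 2 to 3, 56.5% at 4 to 5 and 97.0% at 20 or more. Cells just inside the threshold therefore carried these 2 genes about as often as not, and cells far inside it almost always did.

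**Figure D1:**
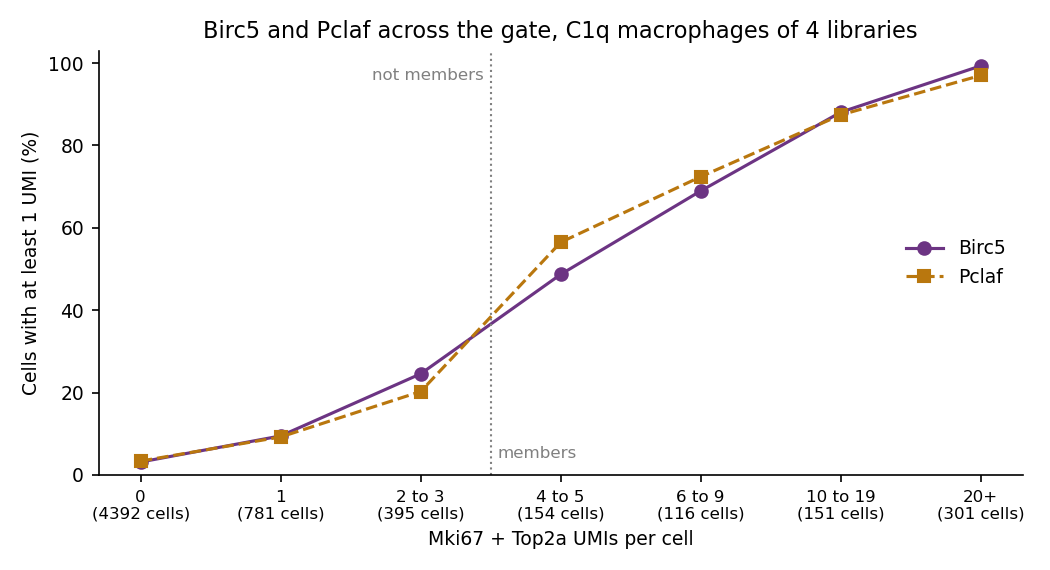
Share of C1q macrophages with at least 1 UMI of Birc5 (circles) or Pclaf (squares), in percent, by the number of Mki67 plus Top2a UMIs in the cell, over the 4 libraries together; the dotted line is the threshold of 4 UMIs. Both shares climb from about 3% of 4392 cells with 0 such UMIs to 99.3% and 97.0% of 301 cells with 20 or more.

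NK/ILC1 markers were also higher in dividing macrophages. The 10 genes of the NK/ILC1 marker list, none of them at 0, summed to 693 and 823 CPM in dividing macrophages of the female and male Csf2-/- libraries and 797 and 672 CPM in those of the female and male Csf2+/- libraries, against 362 and 424 (Csf2-/-) and 351 and 342 (Csf2+/-) CPM in the non-dividing ones. Predicted doublets (barcodes that may hold 2 cells) made up 14.6% and 19.6% (Csf2-/-) and 16.8% and 14.3% (Csf2+/-) of dividing macrophages, against 5.94% and 10.5% (Csf2-/-) and 6.21% and 7.49% (Csf2+/-) of non-dividing ones, 123 cells in all. Cells with at least 3 UMIs of defining genes of other lineages made up 31.4% and 30.1% (Csf2-/-) and 32.8% and 23.4% (Csf2+/-) of dividing macrophages, against 15.4% and 20.5% (Csf2-/-) and 14.5% and 13.8% (Csf2+/-) of non-dividing ones. Ncr1 or Klrb1c had a UMI in 16.8% and 17.97% (Csf2-/-) and 19.2% and 12.99% (Csf2+/-) of dividing macrophages, against 6.92% and 8.74% (Csf2-/-) and 6.81% and 6.26% (Csf2+/-) of non-dividing ones. After each cell was thinned to 8000 UMIs, which left out 4 to 21 shallower dividing and 253 to 348 non-dividing cells per library, these shares were 8.53% and 11.6% (Csf2-/-) and 11.6% and 11.3% (Csf2+/-), against 6.93% and 7.25% (Csf2-/-) and 5.76% and 5.96% (Csf2+/-). Dendritic cell markers summed to 73.8 and 139 CPM (Csf2-/-) and 106 and 174 CPM (Csf2+/-) in dividing macrophages. In non-dividing ones they summed to 68.2 and 84.9 CPM (Csf2-/-) and 63.6 and 55.8 CPM (Csf2+/-). T cell markers were also higher in each library, whereas ILC2, B cell, monocyte and epithelial markers went both ways. Neutrophil genes went the other way, at 13.4 and 98.3 CPM (Csf2-/-) and 7.07 and 10.8 CPM (Csf2+/-) in dividing macrophages against 164 and 171 CPM (Csf2-/-) and 166 and 45.6 CPM (Csf2+/-) in non-dividing ones. Red cell genes were lower in each library too. What part these cells have in the results was not tested.

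The dividing share of C1q macrophages was highest in the Csf2-/- male library. It was 8.19% in the Csf2-/- female library (137 of 1673 cells; exact 95% binomial interval 6.92% to 9.61%) and 17.3% in the Csf2-/- male library (306 of 1766; 15.6% to 19.2%). It was 9.14% in the Csf2+/- female library (125 of 1368; 7.66% to 10.8%) and 10.4% in the Csf2+/- male library (154 of 1483; 8.88% to 12.0%). The Csf2-/- female library lay below both Csf2+/- libraries and the Csf2-/- male library above both, so the genotypes overlapped. The means were 12.8 ± 6.46% in Csf2-/- and 9.76 ± 0.882% in Csf2+/- libraries (SD, n = 2 each), a log2 ratio of 0.39 with p = 1 in a two-sided exact permutation test, which at 2 against 2 libraries cannot give a p below 0.33. Without the Csf2-/- male library the log2 ratio was -0.25, so its direction rests on that library. Intervals cover counting error only.

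The mannose receptor Mrc1 (CD206) marks macrophages along vessels and in connective tissue, and the dividing share was set out by its UMI count. Among cells with at least 10 Mrc1 UMIs (Mrc1-high), the dividing share was 4.47% (23 of 514 cells; 2.86% to 6.64%) in the Csf2-/- female library and 15.3% (129 of 842; 12.95% to 17.9%) in the Csf2-/- male library. It was 5.84% (25 of 428; 3.82% to 8.50%) in the Csf2+/- female library and 7.05% (39 of 553; 5.06% to 9.52%) in the Csf2+/- male library. The Csf2-/- male library again stood above the other 3, whose intervals overlapped each other. The means were 9.90 ± 7.67% in Csf2-/- and 6.45 ± 0.857% in Csf2+/- libraries (SD, n = 2 each), a log2 ratio of 0.62 (exact permutation p = 1), and -0.53 without the Csf2-/- male library.

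Among cells with at most 2 Mrc1 UMIs (Mrc1-low), the dividing share was 10.3% (99 of 961 cells; 8.45% to 12.4%) in the Csf2-/- female library and 19.4% (142 of 733; 16.6% to 22.4%) in the Csf2-/- male library. It was 11.6% (89 of 768; 9.41% to 14.1%) in the Csf2+/- female library and 13.4% (98 of 733; 10.99% to 16.05%) in the Csf2+/- male library. The means were 14.8 ± 6.41% in Csf2-/- and 12.5 ± 1.26% in Csf2+/- libraries (SD, n = 2 each), a log2 ratio of 0.25 (exact permutation p = 1), and -0.28 without the Csf2-/- male library. Cells with 3 to 9 Mrc1 UMIs gave 7.58% and 18.3% in the female and male Csf2-/- libraries, against 6.40% and 8.63% in the female and male Csf2+/- libraries.

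In each library fewer of the Mrc1-high than of the Mrc1-low macrophages were dividing. The log2 ratio of the Mrc1-high to the Mrc1-low share was -1.20 in the Csf2-/- female, -0.34 in the Csf2-/- male, -0.99 in the Csf2+/- female and -0.92 in the Csf2+/- male library, a mean of -0.86 ± 0.37 (SD, n = 4). It was negative in 4 of 4 libraries, with p = 0.125 in an exact sign-flip test, the smallest that 4 libraries can give. The gap was narrowest in the Csf2-/- male library. The change with genotype differed between Mrc1-high and Mrc1-low cells by 0.18 on the log2 scale (exact permutation p = 1), and by -0.25 without the Csf2-/- male library.

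**Figure D2:**
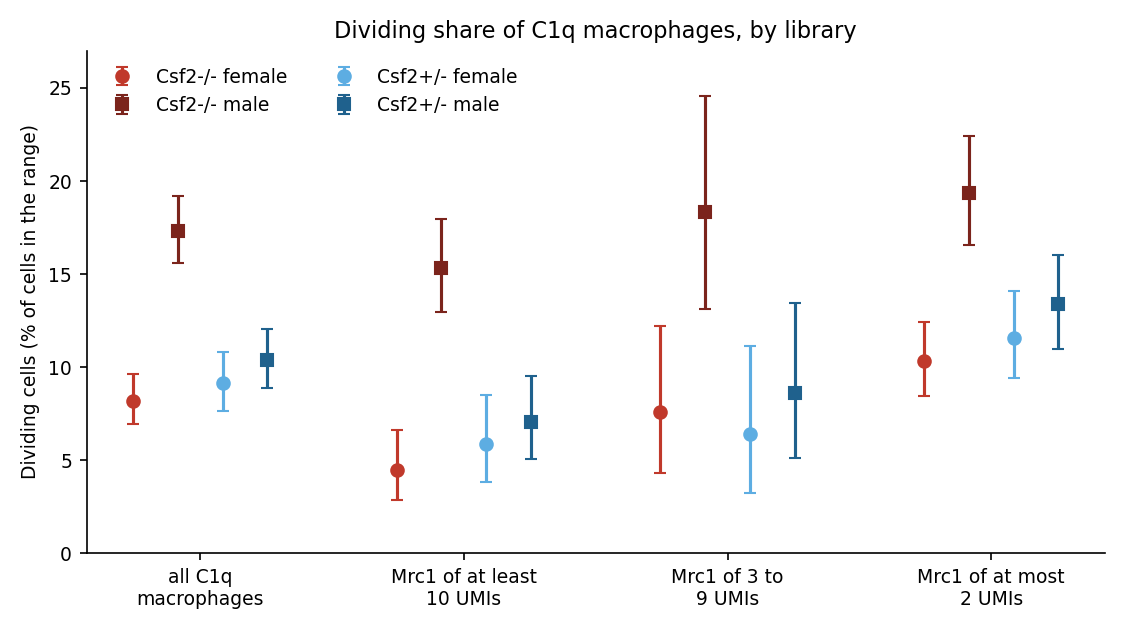
Dividing cells as a percentage of C1q macrophages in each library, over all and by Mrc1 UMIs per cell; bars are exact 95% binomial intervals, which cover counting error only. The Csf2-/- male library is the highest in each range, and in each library the Mrc1-high share is below the Mrc1-low share.

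Dividing Mrc1-high cells carried less Mrc1 per UMI than their non-dividing counterparts, with medians of 10.6 and 20.2 Mrc1 UMIs per 10000 in the female and male Csf2-/- libraries and 12.6 and 14.3 in the female and male Csf2+/- libraries, against 27.4 and 30.7 (Csf2-/-) and 25.6 and 26.7 (Csf2+/-) in non-dividing Mrc1-high cells. Their median depths were 23295 and 19627 UMIs (Csf2-/-) and 25228 and 17658 UMIs (Csf2+/-), against 9646 and 10941 (Csf2-/-) and 10165 and 10639 (Csf2+/-). Predicted doublets were 26.1% and 29.5% (Csf2-/-) and 36% and 20.5% (Csf2+/-) of dividing Mrc1-high cells, against 4.08% and 10.8% (Csf2-/-) and 6.92% and 7.98% (Csf2+/-) of non-dividing ones. Cells with at least 3 UMIs of other lineages' defining genes were 60.9% and 41.9% (Csf2-/-) and 52% and 33.3% (Csf2+/-) of dividing Mrc1-high cells, against 12.2% and 22.1% (Csf2-/-) and 14.7% and 13.8% (Csf2+/-) of non-dividing ones. Dividing cells were deeper in the Mrc1-low range too. Their medians there were 16633 and 17506 UMIs (Csf2-/-) and 18578 and 16560.5 UMIs (Csf2+/-). Non-dividing Mrc1-low cells had 10504.5 and 10924 (Csf2-/-) and 11743 and 11003 (Csf2+/-). What part depth or doublets have in the gap between Mrc1-high and Mrc1-low shares was not tested. The mean log2 ratio was -1.24 with cells thinned to 8000 UMIs and -1.12 without predicted doublets, and ranged from -1.40 to -0.69 over the alternatives.

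Shares outside the macrophages were compared for the same libraries. NK/ILC1-like cells meeting the Mki67 and Top2a condition were 10.6% (99 of 932) and 16.9% (124 of 733) in the female and male Csf2-/- libraries, against 12.5% (139 of 1113) and 19.6% (193 of 987) in the female and male Csf2+/- libraries. Over all kept cells outside the macrophage gate the shares were 7.79% and 9.59%, against 8.89% and 10.8%. In both of these populations the male library was above the female library of its genotype, and the Csf2+/- male library was the highest.

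The dividing macrophages were split by phase into cells with more UMIs of the S list than of the G2/M list, Mki67 and Top2a left out. Such S-type cells were 24.8% (34 of 137) and 32.0% (98 of 306) of dividing macrophages in the female and male Csf2-/- libraries, against 23.2% (29 of 125) and 25.3% (39 of 154) in the female and male Csf2+/- libraries. The means were 28.4 ± 5.10% in Csf2-/- and 24.3 ± 1.502% in Csf2+/- libraries (SD, n = 2 each), a difference of 4.16 percentage points (exact permutation p = 0.67). The genotypes overlapped. With each cell thinned to 8000 UMIs the shares were 19.8% (19 of 96) and 22.8% (50 of 219) in Csf2-/-, against 15.2% (12 of 79) and 17.8% (19 of 107) in Csf2+/- libraries. These did not overlap, with a difference of 4.84 percentage points (exact permutation p = 0.33, the smallest that 2 against 2 libraries can give). The split compares summed UMIs, and the S list is the shorter one. With the lists compared by mean UMIs per gene the shares were 27.01% and 39.2% in Csf2-/-, against 31.2% and 29.9% in Csf2+/- libraries. Without predicted doublets they were 23.9% and 30.9% in Csf2-/-, against 24.04% and 25% in Csf2+/- libraries. The genotypes overlapped in both of these alternatives.

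The next values set dividing against non-dividing macrophages and describe the rule's own split of the cells, so they carry no test. Of 9627 genes at 5 CPM or more on average over both states, 400 (4.15%) were at least 2-fold higher in dividing macrophages of all 4 libraries on the log2(CPM + 1) scale, and 53 (0.551%) at least 2-fold lower; 3577 (37.2%) were higher and 2078 (21.6%) lower by any amount in all 4, with a median log2 ratio of 0.08. The 10 highest genes at 50 CPM or more were H1f5 (a linker histone, median log2 ratio 6.49), Nusap1 (a spindle microtubule protein, 6.11), Birc5 (5.91), the chromokinesin Kif4 (5.82), Pclaf (5.81), Hmmr (5.78), the DNA glycosylase Neil3 (5.68), the midzone protein Prc1 (5.68), cyclin A2 (Ccna2, 5.67) and the histone H2ac24 (5.61).

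Most replication genes were higher in dividing macrophages. Of 43 measured genes of the S list, 35 were at least 2-fold higher in all 4 libraries, with a median log2 ratio of 2.05, and so were 15 of 16 origin licensing genes (1.82) and 14 of 17 fork genes (1.94), or 13 of 16 (1.90) without Top2a, which the rule used. Rrm2, the regulatory subunit of ribonucleotide reductase, averaged 86.4 ± 2.24 CPM in dividing and 1.40 CPM in non-dividing macrophages (SD, n = 4 libraries; median log2 ratio 5.29). Thymidylate synthase (Tyms) averaged 81.8 against 8.13 CPM (3.16), Mcm5 91.7 against 23.3 CPM (2.08) and the sliding clamp Pcna 379 against 178 CPM (1.08). In the nucleotide synthesis list 7 of 12 genes passed 2-fold in all 4 libraries (median 1.76). Those 7 were the deoxynucleotide genes, such as Tk1 (4.11) and Dut (2.43), while the purine and pyrimidine ring genes Cad (0.50), Umps (0.56), Gart (0.63), Paics (0.57) and Impdh2 (0.78) were higher by less.

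Mitotic genes had higher ratios than replication genes, in cells chosen by Mki67 and Top2a. Both of these are in the G2/M list, and the non-dividing cells had 0 UMIs of them, so the order of the lists is no independent result. Of 51 measured G2/M genes, Mki67 and Top2a included, 47 were at least 2-fold higher in all 4 libraries (median 3.99), as were 22 of 22 spindle and cytokinesis genes (4.43), 16 of 17 centromere genes (3.84), 16 of 17 mitotic kinase and checkpoint genes (4.03) and 9 of 12 condensin and cohesin genes (2.60). Cyclin-dependent kinase 1 (Cdk1) averaged 134 CPM in dividing and 6.03 CPM in non-dividing macrophages (4.28). Cyclin B1 (Ccnb1) averaged 71.2 against 0.548 CPM (5.57), the anaphase activator Cdc20 69.1 against 1.57 CPM (4.89) and Polo-like kinase 1 (Plk1) 42.6 against 0.356 CPM (4.95). Pttg1 (securin) was the checkpoint gene that did not pass, at -0.22. Condensin was above cohesin in ratio, with Ncapg at 4.81 and Smc2 at 3.59, against Smc3 at 0.93 and Stag1 at 0.62.

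Among the regulators, FOXM1 (Foxm1) averaged 32.5 CPM in dividing and 0.660 CPM in non-dividing macrophages (4.34) and B-MYB (Mybl2) 17.6 against 0.899 CPM (3.42). The repressor E2Fs E2f7 (4.68) and E2f8 (3.76) had higher ratios than the activator E2f1 (0.99), and 9 of 11 E2F and DREAM genes passed 2-fold in all 4 libraries. E, A and B type cyclins ran from 3.05 (Ccne2) to 5.67 (Ccna2), whereas the D type cyclins, which relay growth factor signals to CDK4 and CDK6, were near 0, at -0.08 for Ccnd1 (range over libraries -0.39 to 0.17), -0.07 for Ccnd2 and -0.05 for Ccnd3. Ccnd1 was already present in non-dividing macrophages, at 173 CPM, against 163 CPM in dividing ones.

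Of 12 measured CDK inhibitors and other brakes, 2 passed 2-fold higher in all 4 libraries, the INK4 genes Cdkn2c (2.29) and Cdkn2d (1.92), and the list's median was 0.08, as over all genes. Cdkn1a (p21) averaged 317 ± 27.9 CPM in dividing and 194 ± 14.7 CPM in non-dividing macrophages (SD, n = 4 libraries), 0.59 to 0.82 higher on the log2 scale in each library. Of 16 chromatin genes, 15 passed 2-fold in all 4 libraries (median 1.91), led by the histone variant H2ax (3.69) and the maintenance methylation factor Uhrf1 (3.28, 104 against 9.82 CPM). Of 11 ribosome biogenesis genes, 0 passed 2-fold, but 10 were higher in all 4 libraries, with a median of 0.42.

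The identity genes of macrophages were lower in CPM in the dividing cells. CPM is a share of a total that was larger in dividing cells, so a lower CPM need not mean fewer UMIs per cell. Median C1q UMIs per cell, which the rule used, were 160 and 169.5 (Csf2-/-) and 153 and 156.5 (Csf2+/-) in dividing macrophages. They were 122 and 130 (Csf2-/-) and 120 and 111 (Csf2+/-) in non-dividing ones. The same limit holds for the other lower CPM values below. Of 16 macrophage core genes, C1qa, C1qb and C1qc of the rule included, 15 were lower in all 4 libraries (median log2 ratio -0.45). C1qa, part of the rule, stood at 3375 and 3191 CPM in dividing macrophages of the female and male Csf2-/- libraries and 2855 and 3304 CPM in those of the female and male Csf2+/- libraries, against 4351 and 4289 CPM (Csf2-/-) and 3990 and 3857 CPM (Csf2+/-) in non-dividing ones. Csf1r stood at 732 and 777 CPM (Csf2-/-) and 675 and 799 CPM (Csf2+/-), against 986 and 1003 CPM (Csf2-/-) and 948 and 1009 CPM (Csf2+/-). The efferocytosis receptor Mertk had a ratio of -1.15 and F4/80 (Adgre1) of -0.73, whereas the chemokine receptor Cx3cr1 was at -0.06. Lysosomal genes were lower in all 4 libraries for 16 of 17 genes (-0.43), led by cathepsin L (Ctsl, -1.18).

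Transcription factors linked in mice to macrophage quiescence and self-renewal were among the lower genes. c-Maf (Maf) averaged 266 CPM in dividing and 603 CPM in non-dividing macrophages (-1.29). Klf2, a factor of quiescence, averaged 427 against 879 CPM (-1.06). Klf4 averaged 355 against 698 CPM (-1.01), and Myc averaged 15.4 against 12.4 CPM. In this list 9 of 12 genes were lower in all 4 libraries (median -0.55). The lineage factors Spi1 (PU.1, -0.10) and Irf8 (0.03) were close to 0.

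Genes of perivascular-type macrophages were lower still. Among genes at 50 CPM or more, the 10 lowest median log2 ratios were those of the folate receptor Folr2 (-1.93), Gas6 (-1.84), the transglutaminase F13a1 (-1.75), Selenop (-1.62), Igf1 (-1.61), Fcgrt (-1.48), Ccl6 (-1.45), Ifitm2 (-1.44), Pf4 (-1.40) and Pltp (-1.40). Of 13 genes of the perivascular list, 10 were at least 2-fold lower in all 4 libraries, with a median of -1.75. Folr2 stood at 88.0 and 150 CPM in dividing macrophages of the female and male Csf2-/- libraries and at 50.9 and 83.1 CPM in those of the female and male Csf2+/- libraries, against 337 and 448 CPM (Csf2-/-) and 315 and 319 CPM (Csf2+/-) in non-dividing ones. Lyve1, a hyaluronan receptor, stood at 34.1 and 110 CPM (Csf2-/-) and 12.6 and 39.98 CPM (Csf2+/-) against 167 and 367 CPM (Csf2-/-) and 104 and 137 CPM (Csf2+/-). Within both states the Csf2-/- male library was the highest for these 2 genes. Of 8 antigen presentation genes of MHC class II, 6 were lower in all 4 libraries (median -0.29); H2-Ab1 stood at 2886 and 2208 CPM (Csf2-/-) and 3458 and 3258 CPM (Csf2+/-) against 3574 and 2542 CPM (Csf2-/-) and 4180 and 3620 CPM (Csf2+/-).

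**Figure D3:**
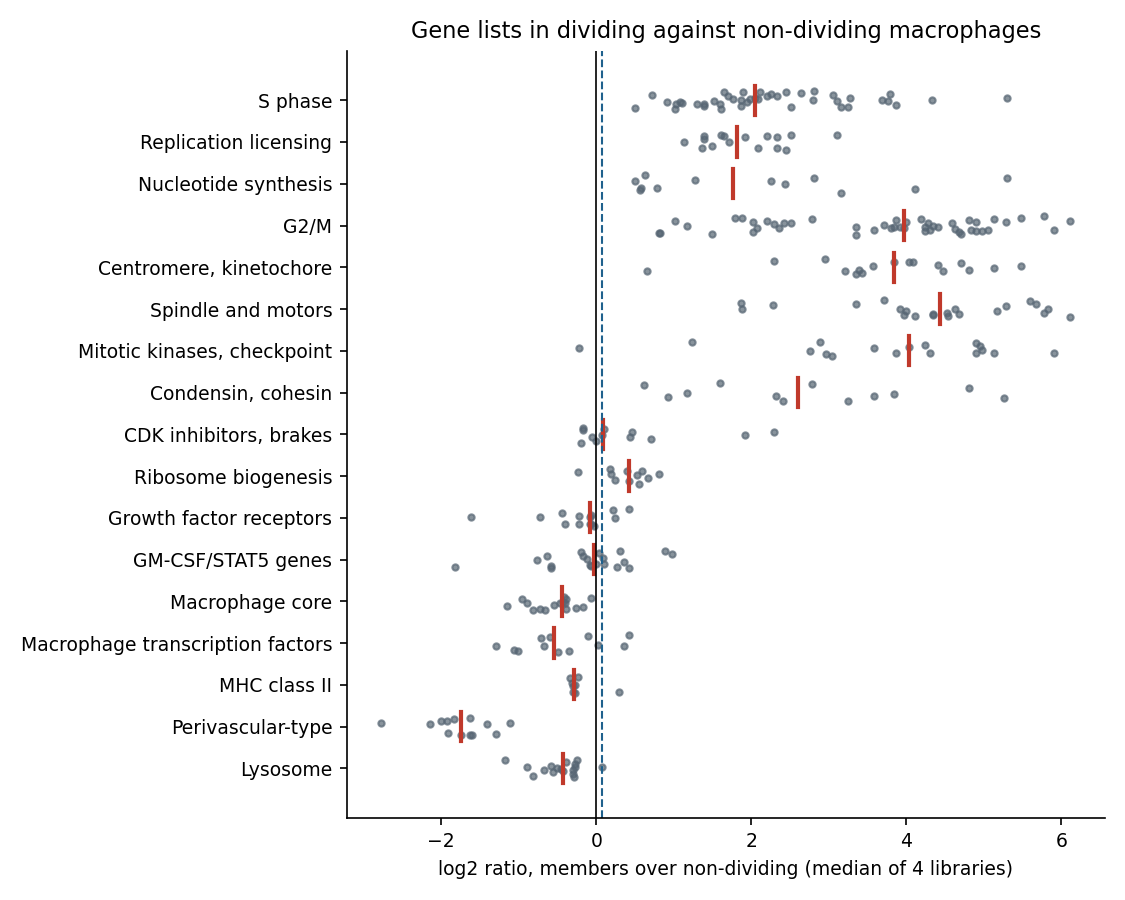
Log2 ratio of CPM + 1 in dividing over non-dividing macrophages, 1 point per gene (median of 4 libraries), by gene list, without Mki67 and Top2a; red bars are list medians and the dashed line is the median of all genes (0.08). S, G2/M and chromosome lists lie to the right of the dashed line and the perivascular list farthest to its left (-1.75).

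Of 14 measured genes of growth factor receptors and their signalling, 6 were lower in all 4 libraries, 1 was higher in all 4, and the median was -0.08. Igf1, a growth factor of the same list, was lower by at least 2-fold in all 4 libraries (-1.61), and Csf1r, the receptor for M-CSF, was lower in all 4 (-0.40). Csf2ra, the GM-CSF binding chain, averaged 169 CPM in dividing and 178 CPM in non-dividing macrophages (-0.07), and Csf2rb, the shared signalling chain, 46.5 against 53.4 CPM (-0.22). Early response genes raised by tissue dissociation were lower in all 4 libraries for 14 of 16 genes (-0.39), and interferon genes for 11 of 15 (-0.41).

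The same ratios were taken within the Mrc1 ranges, since fewer dividing cells were Mrc1-high. Mrc1-high cells were 16.8% and 42.2% of dividing macrophages in the female and male Csf2-/- libraries and 20.0% and 25.3% in the female and male Csf2+/- libraries, against 34.0% and 49.8% (Csf2-/-) and 34.7% and 40.4% (Csf2+/-) of non-dividing ones. Within Mrc1-high cells the perivascular genes were also lower in dividing cells, 13 of 13 in all 4 libraries (median log2 ratio -1.36). The 13 include Mrc1 itself (-0.79), whose raw count set the range. Dividing cells of this range held less Mrc1 per UMI, as given above, so the 2 states were not matched on Mrc1. Of all 9747 genes measured within this range, 18.8% were lower and 26.5% higher in all 4 libraries, with a median of 0.05. MHC class II genes ran the other way there, with 5 of 8 higher in all 4 libraries (median 0.48). H2-Ab1 was higher by 0.68 (range over libraries 0.12 to 0.87) and H2-Eb1 by 0.67. Dendritic cell markers were higher in dividing macrophages as a whole, as given above, and what part dendritic cell RNA has here was not tested. Within Mrc1-low cells 8 of 8 MHC class II genes were lower in all 4 libraries (-0.63), H2-Ab1 by a log2 ratio of -0.61. Of all 9398 genes measured within this range, 13.9% were lower and 35.3% higher in all 4 libraries, with a median of 0.12. Macrophage core genes, the C1q genes of the rule included, were lower in both ranges, 15 of 16 in Mrc1-high (-0.67) and 16 of 16 in Mrc1-low cells (-0.32). With predicted doublets and cells carrying other lineages' genes left out, 7 and 72 (Csf2-/-) and 12 and 24 (Csf2+/-) dividing Mrc1-high cells were left, and the medians within Mrc1-high cells were -1.52 for perivascular genes and 0.76 for MHC class II genes, with 5 of 7 MHC class II genes higher in all 4 libraries (18.5% of all genes then measured were), and -0.70 for MHC class II within Mrc1-low cells.

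**Figure D4:**
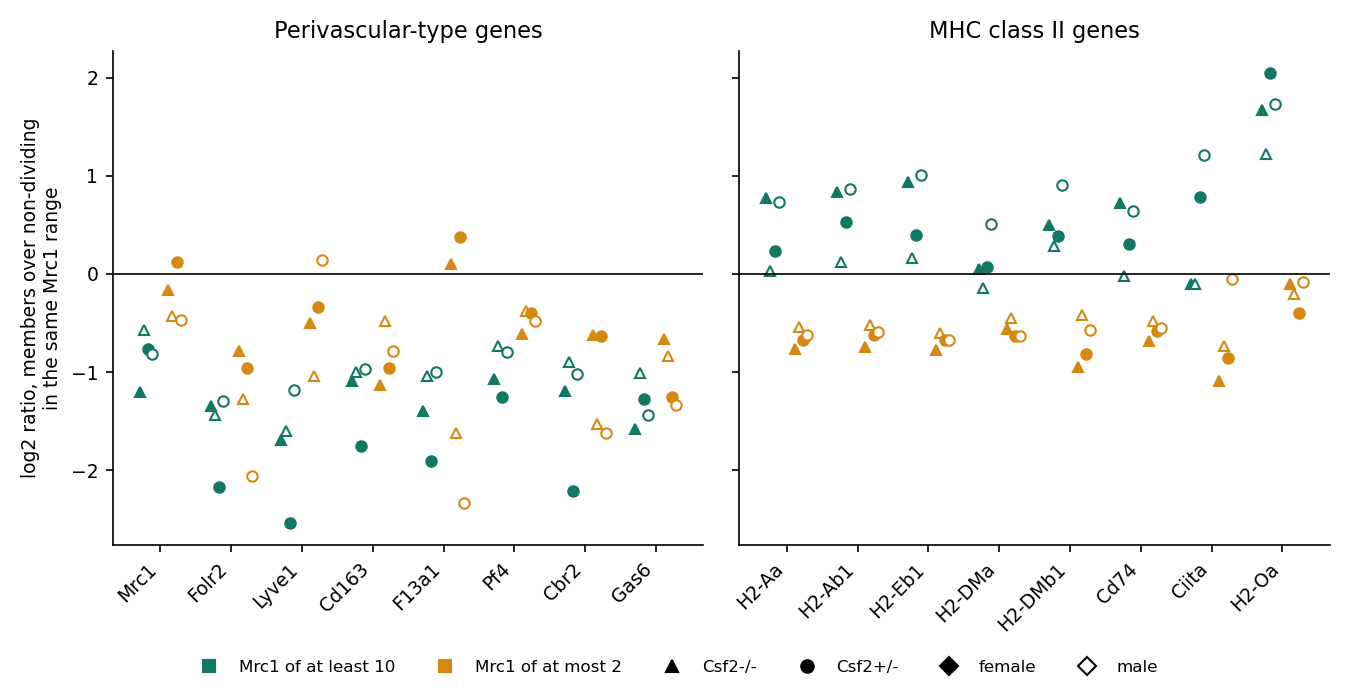
Log2 ratio of CPM + 1 in dividing over non-dividing macrophages within cells of at least 10 Mrc1 UMIs (green) and at most 2 (orange), for perivascular and MHC class II genes, 1 symbol per library (triangles Csf2-/-, circles Csf2+/-, filled female, open male). The orange points of the MHC class II genes all lie below 0, whereas most green ones lie above it.

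Among the dividing macrophages themselves, Mrc1-high cells had lower Mki67 than Mrc1-low cells, at 373 ± 32.7 against 491 ± 16.9 CPM (SD, n = 4 libraries). The MHC class II chain H2-Aa averaged 2261 ± 780 CPM in Mrc1-high and 3468 ± 432 CPM in Mrc1-low dividing cells, and Cx3cr1 67.2 ± 18.5 against 111 ± 6.61 CPM. Pcna ran the other way, at 422 ± 43.7 in Mrc1-high against 352 ± 37.3 CPM in Mrc1-low cells, 0.20 to 0.33 higher on the log2 scale in each library. These are descriptions of cells chosen by their Mrc1 counts, and by Mki67 and Top2a counts in the rule, and carry no test. Mrc1-high dividing cells had median depths of 17658 to 25228 UMIs per library, against 16560.5 to 18578 in Mrc1-low ones. Predicted doublets were 20.5% to 36% of them, against 9.18% to 12.4%. What part depth or doublets have in these differences was not tested.

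Dividing macrophages were also set beside dividing NK/ILC1-like cells, both gated on Mki67 and Top2a, with no test. Mki67 was close, at 438 against 510 CPM (median log2 ratio -0.25), and Ccnb1 stood at 71.2 against 63.0 CPM (0.21). Pclaf averaged 290 in macrophages against 650 CPM in NK/ILC1-like cells (-1.13), Top2a 544 against 949 CPM (-0.79) and Stmn1, a microtubule destabiliser, 812 against 1582 CPM (-0.93). Ccnd1 averaged 163 against 16.9 CPM (3.11) and Cdkn1a 317 against 69.4 CPM (2.18), both higher in the macrophages, whereas Ccnd3 averaged 71.5 against 133 CPM (-0.85). Csf1r averaged 746 against 7.75 CPM and granzyme A (Gzma) 154 against 1590 CPM.

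Whether loss of both copies of Csf2 changed the dividing macrophages was tested over the 4 libraries with edgeR's quasi-likelihood test on UMI counts summed per library. Of 10306 genes, 12 (0.116%) passed a Benjamini-Hochberg adjusted p of 0.05, 6 (0.0582%) higher and 6 (0.0582%) lower in Csf2-/-. Without adjustment 640 (6.21%) were under 0.05, 290 (2.81%) higher and 350 (3.40%) lower. The 6 lower genes were Lpl, Ear2, Il1rn, Fabp5, Traf3 and Ccl5, and the 6 higher genes were Fabp4, Igfbp7, Col4a1, Sparc, Ly6c1 and Hmox1. Sparc and Ly6c1, at under 10 CPM on average, were named after their values were seen.

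Lipoprotein lipase (Lpl), which releases fatty acids from lipoproteins, stood at 196 and 199 CPM in dividing macrophages of the female and male Csf2-/- libraries, against 327 and 339 CPM in those of the female and male Csf2+/- libraries. The genotypes did not overlap, and Lpl fell by a log2 change of -0.75 (SE 0.11, edgeR adjusted p = 0.0187). Ear2, an eosinophil-associated ribonuclease also made by macrophages, stood at 9.18 and 17.2 CPM in Csf2-/-, against 45.4 and 64.7 CPM in Csf2+/- libraries (log2 change -1.97, SE 0.26, edgeR adjusted p = 0.0390). Lpl and Ear2 kept their calls when each library was left out in turn. Lpl lost its call in 3 of 16 alternatives, with an edgeR adjusted p of 0.161 at 40 or more C1q UMIs, 0.0586 without endothelial-gene cells and 0.0608 with all cleaning. Ear2 lost it in 4 of 16, with an adjusted p of 0.0940 at 20 CPM or more, 0.0504 without other-lineage cells, 0.465 at 40 or more C1q UMIs and 0.344 without endothelial-gene cells. Il1rn, the interleukin-1 receptor antagonist, stood at 6.12 and 4.95 CPM in Csf2-/-, against 17.8 and 25.4 CPM in Csf2+/- libraries (-2.01, SE 0.30, edgeR adjusted p = 0.0187), and missed the threshold without the Csf2+/- male library (adjusted p = 0.0542) or without the Csf2-/- male library (0.0959).

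The fatty acid binding protein Fabp5 stood at 29.5 and 37.2 CPM in Csf2-/-, against 64.0 and 80.0 CPM in Csf2+/- libraries (-1.09, SE 0.16, edgeR adjusted p = 0.0187). A single cell held 136 of its 230 UMIs in the Csf2+/- male library and another 94 of its 233 UMIs in the Csf2-/- male library. Without the top cell of each library Fabp5 stood at 25.7 and 22.3 CPM in Csf2-/-, against 40.7 and 33.3 CPM in Csf2+/- libraries. It lost its call in 6 of 16 alternatives, with a change of -0.27 (edgeR adjusted p = 0.992) without predicted doublets and -0.38 (adjusted p = 0.993) without other-lineage cells. Traf3, an adaptor that restrains NF-kB signalling, stood at 69.2 and 73.3 CPM in Csf2-/-, against 112 and 127 CPM in Csf2+/- libraries (-0.74, SE 0.12, adjusted p = 0.0321). The chemokine Ccl5, which NK cells also make, stood at 159 and 129 CPM in Csf2-/-, against 239 and 265 CPM in Csf2+/- libraries (-0.82, SE 0.14, adjusted p = 0.0394). Haem oxygenase 1 (Hmox1), which degrades haem, was higher in Csf2-/-, at 133 and 191 CPM against 82.6 and 76.8 CPM in Csf2+/- libraries (1.03, SE 0.15, adjusted p = 0.0348). Of 16 alternatives, Traf3 and Ccl5 each lost their call in 8 and Hmox1 in 9, and Il1rn lost its call in 5 of 15. Traf3 missed the threshold without either male library, and Ccl5 and Hmox1 without either male or the Csf2+/- female library.

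The other 5 higher genes are known from endothelial cells and rested on 1 cell in each Csf2-/- library. Fabp4 stood at 35.2 and 34.3 CPM in the female and male Csf2-/- libraries, against 1.49 and 0.695 CPM in Csf2+/- (log2 change 4.96, SE 0.34, edgeR adjusted p = 5.22e-06), and 84 of 92 and 204 of 215 UMIs came from a single cell. Without that cell Fabp4 was at 3.09 and 1.76 CPM. Igfbp7 stood at 26.4 and 24.3 CPM in Csf2-/-, against 1.86 and 1.04 CPM in Csf2+/- libraries (adjusted p = 7.84e-05). Col4a1 stood at 23.7 and 13.7 CPM in Csf2-/-, against 1.86 and 2.78 CPM in Csf2+/- libraries (adjusted p = 0.0198), and the matrix protein Sparc at 11.9 and 9.42 CPM against 2.23 and 1.39 CPM (adjusted p = 0.0412). The same 2 cells held most of the Csf2-/- UMIs of these 3 genes. Ly6c1 had 21 and 28 UMIs in the Csf2-/- libraries, 19 and 27 of them in those cells, against 0 in both Csf2+/- libraries, a count that allows up to 1.12 and 1.04 CPM. The 2 cells carried 62 and 43 UMIs of endothelial genes and were predicted doublets. With dividing macrophages carrying at least 3 endothelial UMIs left out, an alternative chosen after the data were seen, 1 gene passed, the matrix protein fibronectin (Fn1, adjusted p = 0.0360, against 0.0504 with all cells).

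**Figure D5:**
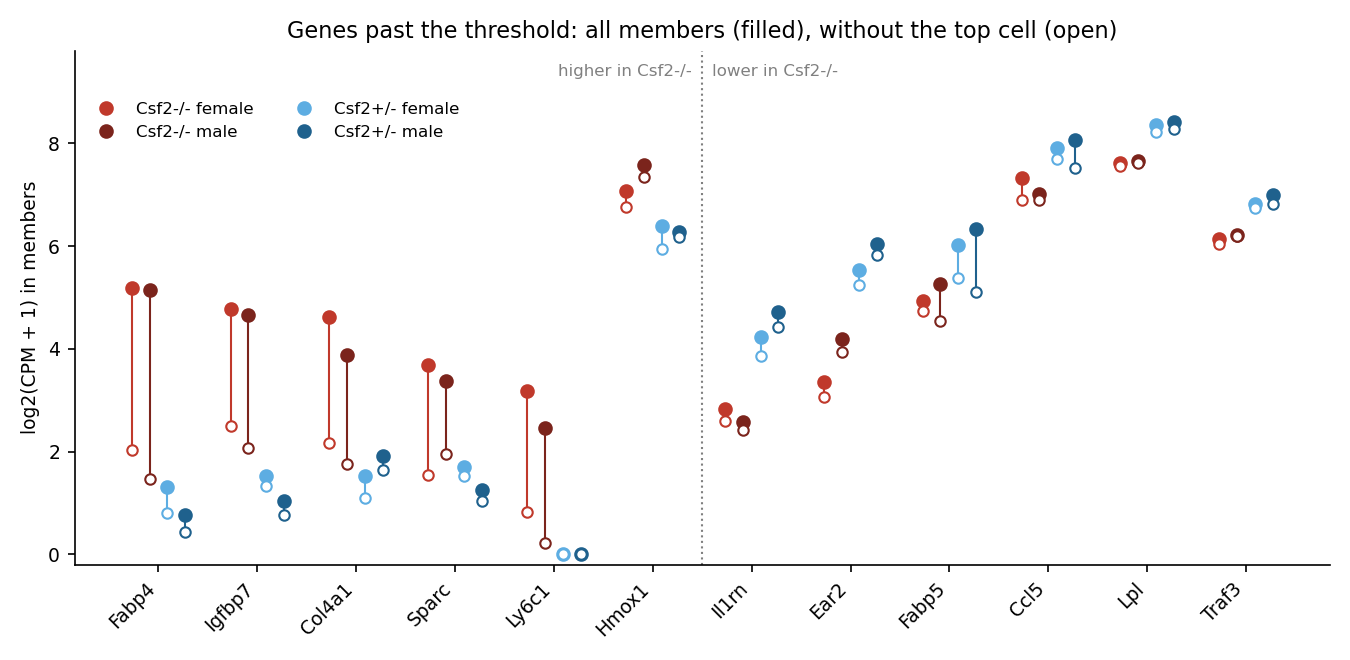
Log2(CPM + 1) in dividing macrophages of each library for the 12 genes called between genotypes, with all cells (filled) and without the cell holding the most UMIs of the gene (open), joined by a line. The 5 genes at the left lose most of their Csf2-/- level with 1 cell, whereas Lpl, Traf3, Ear2 and Il1rn move little.

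The number of calls changed with the cells and libraries kept. It was 2 (Lpl and Ear2) without predicted doublets, where Il1rn stood at a log2 change of -1.83 (edgeR adjusted p = 0.0546), Traf3 at -0.80 (0.0537), Ccl5 at -0.93 (0.926) and Hmox1 at 0.87 (0.902). Without other-lineage cells Hmox1 stood at 0.85 (edgeR adjusted p = 0.938) and Ccl5 at -2.32 (0.00528). The number of calls was 8, all lower, with doublets, endothelial-gene cells and other-lineage cells all left out (Aff3, Il1rn, Lmna, Ear2, Ccr2, Traf3, Adamts1 and Malt1). Retnla, a gene of alternative activation, spanned 1.15 and 112 CPM in the female and male Csf2-/- libraries and 620 and 831 CPM in the female and male Csf2+/- libraries; the log2 change was -3.58 (SE 1.78) with an edgeR adjusted p of 0.910.

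In non-dividing macrophages, 75 of 12502 genes (0.600%) passed the same test, 9 higher and 66 lower. Il1rn, Lpl and Ear2 were lower in both states, which come from the same libraries. Lpl averaged 335 CPM in Csf2-/- and 592 CPM in Csf2+/- non-dividing macrophages, Ear2 19.7 against 91.2 CPM and Il1rn 16.1 against 39.7 CPM.

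The cell-cycle genes showed no called change with genotype. Mki67 (log2 change 0.01), Top2a (0.01), Birc5 (0.05) and Pclaf (-0.00) were near 0 in dividing macrophages, Mki67 and Top2a being part of the rule. Of 43 S-phase genes, 36 had positive changes (median 0.10, against 0.01 over all 10306 genes, of which 5257 were positive), 7 were higher at an unadjusted p under 0.05 and 0 were called. Among them were Hells (0.37, edgeR adjusted p = 0.513), Mcm6 (0.35, adjusted p = 0.584) and Tyms (0.30, adjusted p = 0.778). Of 54 G2/M genes, 38 had negative changes (median -0.07), 1 was lower at an unadjusted p under 0.05 and 0 were called. Without the Csf2-/- male library 25 of 43 S genes were positive with a median of 0.02. Ccnd1 stood at 176 and 195 CPM in Csf2-/- libraries, against 107 and 175 CPM in Csf2+/- (0.40, adjusted p = 0.881), so the Csf2-/- female and Csf2+/- male libraries lay together.

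Genes downstream of GM-CSF included the called genes Lpl and Ear2. Of 20 genes of this list, 2 were called lower, 7 were lower at an unadjusted p under 0.05, and the median change was -0.32 (range over alternatives -0.44 to -0.15). The list, like the others, was chosen with earlier results of these data known, so its counts and median are descriptions and no independent support. Csf2rb itself stood at 40.9 and 32.2 CPM in Csf2-/-, against 60.6 and 52.1 CPM in Csf2+/- libraries, with no overlap (-0.65, SE 0.18, edgeR adjusted p = 0.329). Csf2ra (-0.08) and Csf1r (0.03) were close to 0. Bhlhe40 (-0.50, adjusted p = 0.263), Bcl2l1 (-0.46, adjusted p = 0.423) and Socs2 (-1.15, adjusted p = 0.343), the STAT5 feedback inhibitor, had negative changes that did not pass the edgeR test.

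Antigen presentation and perivascular genes had medians of opposite sign. All 8 MHC class II genes had negative changes in Csf2-/- dividing macrophages (median -0.40), 6 at an unadjusted p under 0.05 and 0 called. Ciita, their master activator, stood at 22.6 and 22.7 CPM in Csf2-/-, against 35.3 and 43.5 CPM in Csf2+/- libraries (-0.81, SE 0.18, edgeR adjusted p = 0.115). Of 13 perivascular genes, 12 had positive changes (median 0.85), 1 was higher at an unadjusted p under 0.05 and 0 were called. Timd4, a receptor for phosphatidylserine, stood at 19.9 and 31.1 CPM in Csf2-/-, against 10.8 and 11.1 CPM in Csf2+/- libraries (1.26, SE 0.25, adjusted p = 0.0706). Both medians lean on the Csf2-/- male library, whose dividing macrophages were 42.2% Mrc1-high. Without it the medians were -0.18 for MHC class II, with 1 gene at an unadjusted p under 0.05, and 0.07 for perivascular genes, 7 of 13 positive. Dendritic cells also carry much MHC class II, and what part their RNA has in these changes was not tested. Of the 10 dendritic cell markers tested, 7 had negative changes (median -0.52), 4 at an unadjusted p under 0.05 and 0 called. They summed to 73.8 and 139 CPM in dividing macrophages of the female and male Csf2-/- libraries, against 106 and 174 CPM in those of the female and male Csf2+/- libraries, with none at 0. Without predicted doublets, 5 dendritic cell markers were measured (median -0.20), and the MHC class II median was -0.42, with 7 of 8 genes lower at an unadjusted p under 0.05. With doublets, endothelial-gene cells and other-lineage cells all left out the MHC class II median was -0.39, with 5 of 8.

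The test of whether the genotype change differed between dividing and non-dividing macrophages called 9 of 12657 genes (0.0711%), with 670 (5.29%) under an unadjusted p of 0.05. Fn1 had the lowest adjusted p. It averaged 55.6 CPM in Csf2-/- and 172 CPM in Csf2+/- dividing macrophages (log2 change -1.67), and 39.0 against 311 CPM in non-dividing ones (-3.01). The difference of the changes was 1.43 (SE 0.12, edgeR adjusted p = 3.01e-08). In the Csf2-/- female library 152 of 174 Fn1 UMIs of dividing macrophages came from 1 cell, without which that library was at 8.56 CPM. With cells carrying other lineages' genes left out the difference was 0.52 (adjusted p = 0.998).

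Hmox1 changed by 1.03 in dividing and 0.17 in non-dividing macrophages, a difference of 0.85 (SE 0.11, edgeR adjusted p = 0.00013), which was 0.53 (adjusted p = 0.998) without other-lineage cells. The matricellular gene Ccn1 averaged 132 CPM in Csf2-/- and 51.2 CPM in Csf2+/- dividing macrophages, and 137 against 95.7 CPM in non-dividing ones (difference 0.87, SE 0.14, adjusted p = 0.00345). Of the other 6 genes called, Id3 differed by 1.49 (SE 0.30, edgeR adjusted p = 0.0473). Predicted doublets with endothelial UMIs held 12 of 38 and 25 of 97 Id3 UMIs in the female and male Csf2-/- libraries. Hlf had 1 UMI in each Csf2+/- library, and single cells held most of the UMIs of Slit2, Fscn1, Dcpp1 and Runx1t1 in at least 1 library. Dcpp1 also had a UMI in 88.3% of the dividing macrophages of the Csf2-/- female library.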

How the data were processed

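Single-cell 3′ libraries of salivary gland CD45+ cells from 2 Csf2-/- and 2 Csf2+/- pools of 20-day-old mice were used. The authors' deposited values are raw UMI counts, whole numbers per gene and barcode. Cell Ranger 7.0.0 and the build GRCm39 are named in the submitters' processing notes; the kit was Chromium 3′ v2, per the labels. Genes carry the names in the files, and promoter sequences come from another build, GRCm38.p6, used for sequence only. The members and gene lists were chosen with earlier results of these data known.

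UMI counts were summed per library over dividing and over non-dividing macrophages, because cells are not replicates. CPM was computed from these sums, and log2 ratios between states use a pseudocount of 1 CPM over genes at 5 CPM or more. Genotype was tested with edgeR 4.0.16 (quasi-likelihood, robust, TMM, default low-count filter, genotype as the single term, 2 residual degrees of freedom, R 4.3.3), with Benjamini-Hochberg adjustment over all genes at 0.05; the difference between states used library as a block. DESeq2 1.42.0 and limma 3.58.1 were alternatives. The scripts were tested on simulated data. Shares were compared by exact permutation tests over libraries (scipy 1.17.1), with exact (Clopper-Pearson) 95% intervals. Doublets were scored with Scrublet in scanpy 1.11.5; its automatic threshold was kept in the Csf2-/- male library, and where it marked under 0.5%, barcodes were marked from the top score down to the expected rate. Doublets stay in the main values.

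Genes named from the genotype test were those called at 10 CPM or more on average, up to 10 per direction; between states, the 10 highest and 10 lowest ratios at 50 CPM or more; in the test of the difference, up to 5 per direction; from each list, up to 6 by level; and a set of markers, receptors and cyclins. Other named genes were chosen after their values were seen. Alternatives were other normalizations, filters, gates, thinning to 8000 or 4000 UMIs, left-out libraries, doublets and cells with other lineages' genes. 1 gene of the lists is not reported here.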

Additional observations from a re-analysis of the deposited data

Results flagged for a closer look

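The change of the dividing share with genotype had opposite signs in the sexes. Over all C1q macrophages the log2 ratio of Csf2-/- to Csf2+/- was -0.16 between the female libraries and 0.74 between the male libraries. Among Mrc1-high cells it was -0.38 and 1.12 for females and males, and among Mrc1-low cells -0.17 and 0.54. With 1 library per sex and genotype this difference was not tested, and sex and library cannot be told apart. The Csf2-/- male library also had the highest share of Mrc1-high cells and of predicted doublets among its macrophages. Its doublets were cut by the automatic threshold, which marked 9.88% of its kept cells. The other libraries were cut at the expected rate, with 7.46% to 8.07% marked, so the doublet shares are not on 1 threshold.

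The genotype change differed between dividing and non-dividing macrophages for 9 genes at an edgeR adjusted p under 0.05. The change in dividing minus that in non-dividing macrophages was 1.43 for Fn1, 0.85 for Hmox1, 0.87 for Ccn1, 0.97 for Dcpp1 (adjusted p = 0.0160), 1.49 for Id3 and 4.21 for the transcription factor Hlf (adjusted p = 0.0426). It was -4.70 for Slit2 (adjusted p = 0.0129), -2.04 for Fscn1 (adjusted p = 0.0133) and -9.51 for Runx1t1 (adjusted p = 0.0473). Hlf had 1 UMI in the dividing macrophages of each Csf2+/- library. It had 7 and 56 UMIs in the female and male Csf2-/- libraries, 18 of the 56 in 1 predicted doublet. Of the Id3 UMIs in these Csf2-/- libraries, 12 of 38 and 25 of 97 came from the predicted doublets with 62 and 43 endothelial UMIs. Of the Dcpp1 UMIs of dividing macrophages in the Csf2-/- male library, 654 of 903 came from 1 cell. Dcpp1 was also spread over many cells, unevenly by library. It had a UMI in 88.3% and 48.0% (Csf2-/- female and male) and 11.2% and 66.2% (Csf2+/- female and male) of dividing macrophages. In non-dividing ones the shares were 83.9% and 45.5% (Csf2-/-) and 17.4% and 66.0% (Csf2+/-). In the Csf2+/- male library 1 cell held 28 of 28 UMIs of Runx1t1, 60 of 63 of Fscn1 and 20 of 23 of Slit2, each counted separately. The fitted value of Runx1t1 rests on counts of 0 and is no bound on a fold.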

How the results depend on the processing

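With 2 libraries per genotype, single libraries decided the direction of the share results. Leaving out each library in turn, the log2 change of the dividing share ranged from -0.25 to 0.83 over all macrophages, from -0.53 to 1.25 in Mrc1-high and from -0.28 to 0.63 in Mrc1-low cells, and the difference between the ranges from -0.25 to 0.62; each lowest value is the one without the Csf2-/- male library. The S-type difference ranged from 0.56 to 7.76 points. The difference between ranges was -0.016 with other-lineage cells left out. With sex as a replicate block the shares changed by 0.29, 0.37 and 0.18, the difference between ranges by 0.18 and the S-type share by 4.16 points. The replicate numbers share a sex only, and the female-minus-male differences of the genotypes correlated by 0.14 across 10306 genes, or 0.08 without sex-linked genes.

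Genes called between genotypes in dividing macrophages were 12; they were 161 without a low-count filter, 3 at 20 CPM or more, 36 with the replicate block, 2 without doublets, 3 at 40 or more C1q UMIs and 1 without endothelial-gene cells, and 18 to 97 with a library left out. DESeq2 gave 13 and limma-voom 12. Calls of the difference between states were 9, against 5 with DESeq2, 61 without a filter, 14 without doublets, 4 without other-lineage cells and 26 to 124 with a library left out. List medians changed sign for G2/M (0.0016 without other-lineage cells, 0.0053 with all cleaning), interferon genes (-0.038 without the Csf2+/- male library, range with a library left out -0.038 to 0.65) and CDK inhibitors (0.030 without the Csf2-/- male library, range -0.23 to 0.030). The causes were not tested. Depth limits genes under about 5 CPM, where 3 UMIs already make about 1 CPM.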
